A study of Mus musculus with 31 samples.

Results

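Hox genes are the 39 protein-coding homeobox genes of the HoxA, HoxB, HoxC and HoxD clusters. They were chosen by name alone (the letters Hox, a cluster letter from a to d, and a number), and all 39 that the mouse annotation GENCODE M21 lists were found among 29267 genes in the files. HoxA held 11 of them, on the minus strand of chromosome 6, with the start of Hoxa13 at 52260880. HoxB held 10, on the plus strand of chromosome 11 from 96194316 to 96368256, HoxC held 9, on the plus strand of chromosome 15 from 102921103 to 103036852, and HoxD held 9, on the plus strand of chromosome 2 from 74668310 to 74765142 (all mm10). The number in a name is the paralogous group, which marks genes in the same place in each cluster. Groups 1 to 3 are called anterior here (8 genes), groups 4 to 8 central (15 genes) and groups 9 to 13 posterior (16 genes).

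Hox proteins are transcription factors that give cells their position along the body axis and the limbs of the embryo. Within a cluster the genes lie in the order of the body levels at which they are switched on, anterior genes at one end and posterior genes at the other. Fibroblasts keep the Hox pattern of the body site they came from through culture, which is known as positional memory, while in embryonic stem cells the clusters are held mostly silent by Polycomb complexes. The comparisons here follow the Hox genes of fibroblasts through reprogramming and set them beside embryonic stem cells.

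RNA was sequenced from mouse cells of the strain 129/OG2, in 31 libraries. Untreated embryonic fibroblasts (MEF, passage 2, day 0) had 2 libraries. Cells under reprogramming by OKSM (the factors Oct4, Klf4, Sox2 and Myc; labelled passage 0) were titled Flag or Tet1CD, were treated with DMSO, Vc or DKG, and were taken at day 3 or day 8, which makes 12 groups of 2 libraries. Flag is taken as the control of Tet1CD, and DMSO as the vehicle of the other treatments. Embryonic stem cells (ESC) had 2 libraries. MEF (passage 2) treated for 3 days with DMSO, Vc or DKG without reprogramming had 1 library each and are given as values with no test, and the title of the last one names 2DG in place of DKG. The labels do not spell out Vc or DKG, give no doses, do not describe Tet1CD or how the factors were delivered, and do not say that the reprogrammed cells came from these MEF. Libraries of the groups with 2 carry the numbers 0824 and 0826, except ESC, which carry 0822 and 0819. The title 0822 goes with passage 17 and 0819 with passage 19, but the names of their deposited files swap the numbers, which leaves the passage of each uncertain. Separate cultures for the 2 libraries of a group are not stated, and p-values here rest only on how far these libraries spread, possibly for technical reasons.

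Libraries held 3953297 to 6818060 counts, so that 3 counts, the limit that a count of 0 allows, came to between 0.44 and 0.759 CPM (counts scaled to library size; such limits cover counting error only). The labels' cell types were checked against marker genes, summed in CPM. The 10 ESC markers (Nanog, Zfp42 and others) summed to 1.93 and 2.44 CPM in MEF, with Zfp42, Dppa5a, Fbxo15, Tdgf1, Dppa4 and Utf1 at 0 in both, against 2577 and 3691 CPM in the ESC libraries. The 12 fibroblast markers (Col1a1, Thy1 and others) summed to 48707 and 51924 CPM in MEF, 3125 to 7944 CPM at day 3 and 3691 to 10244 CPM at day 8. Of the ESC libraries, 0822 stood apart: its fibroblast markers summed to 14917 CPM, 29.6% of the MEF mean, against 4566 CPM or 9.07% in 0819. Macrophage markers (8 genes) summed to 482 and 2261 CPM in MEF and to 67.05 CPM at most at day 3. At day 8, 1 library stood apart, Tet1CD with Vc numbered 0824, at 890.1 CPM, while the other 11 stood at 6.49 to 21.54 CPM. In bulk RNA, fewer cells of a type and less RNA per cell cannot be told apart, and this holds for every fall and rise given here.

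**Figure D1:**
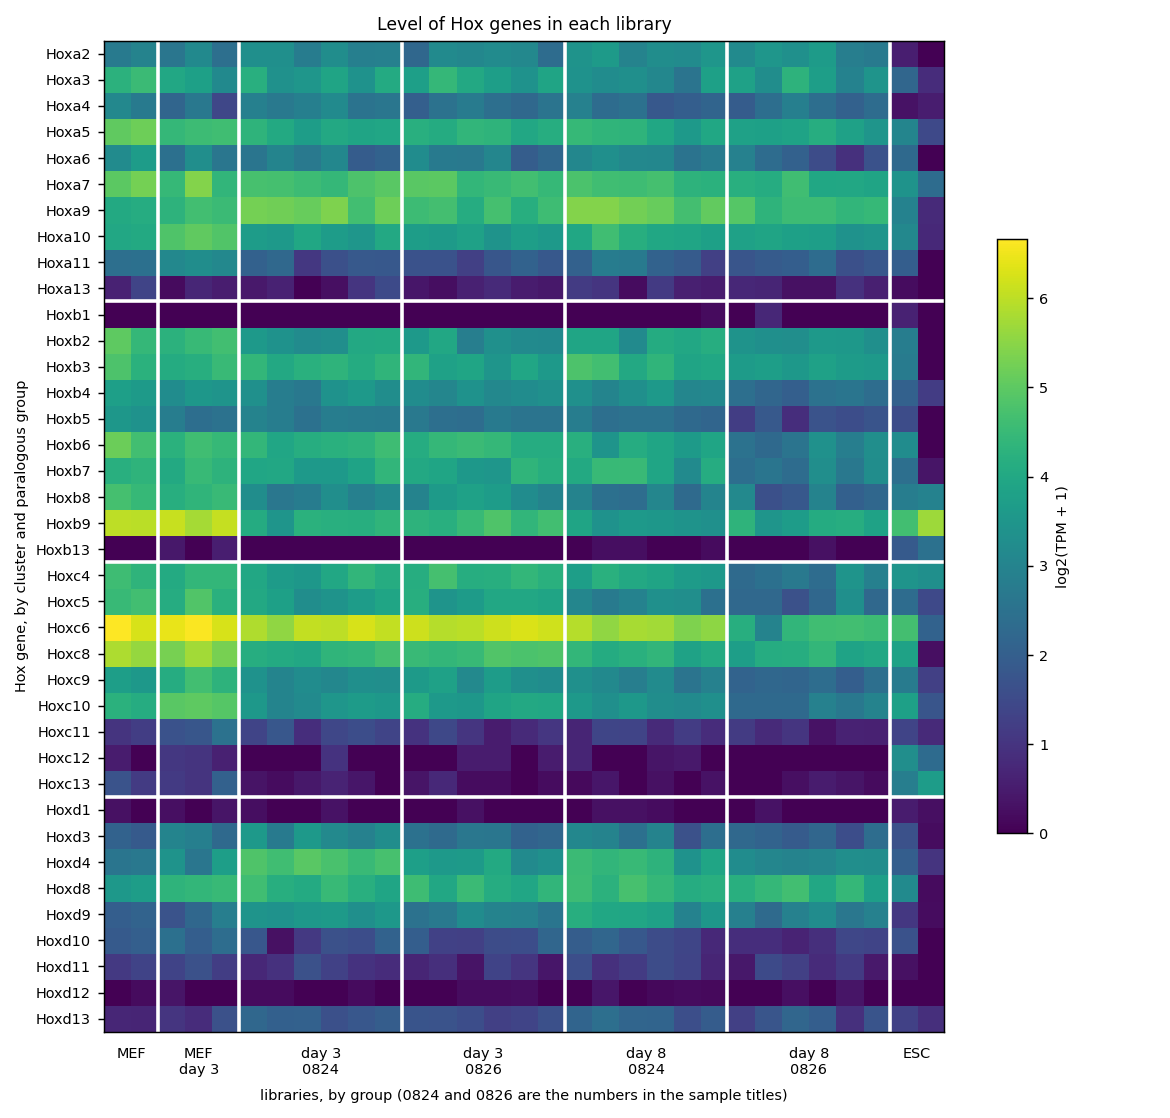
Level of Hox genes (rows, by cluster and paralogous group) in each of the 31 libraries (columns, by group), as the logarithm to base 2 of the deposited TPM plus 1. Hoxc6, Hoxb9 and Hoxc8 are the brightest rows in the MEF columns. Hoxd4 and Hoxd9 are brighter in the reprogramming columns than in untreated MEF. In the last column, ESC library 0819, Hoxb9, Hoxc13, Hoxc4 and Hoxb8 are brightest.

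MEF expressed HoxA, HoxB and HoxC strongly and HoxD weakly. Summed over genes, in TPM (a share of transcripts corrected for length, which can be compared between genes), HoxC stood at 236 and 197 TPM in MEF libraries 0824 and 0826, HoxB at 222 and 186 TPM, HoxA at 142 and 162 TPM, and HoxD at 26.6 and 28.9 TPM. HoxD thus gave 4.24% and 5.03% of all Hox transcripts. Central genes gave 63.2% and 62.8%, posterior genes 22.4% and 24%, and anterior genes 14.5% and 13.1%. Per length, Hoxc6 was the most abundant member in both MEF libraries, at 100 and 75.6 TPM, followed by Hoxb9 at 63.1 and 61.5 TPM and Hoxc8 at 56.8 and 47.7 TPM. In HoxA, Hoxa7 (30.4 and 37.8 TPM) and Hoxa5 (32.1 and 35.3 TPM) were level, their order changing between the libraries. Hoxd8 led HoxD at 10.7 and 12.1 TPM. Several genes at or near the ends of clusters were near silent. Hoxb1 and Hoxb13 had 0 counts in both MEF libraries, and Hoxa13, Hoxc12, Hoxd1 and Hoxd12 each had 3 counts or fewer. Not all end genes were: Hoxc4, at the anterior end of HoxC, stood at 22.95 and 19.19 TPM.

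MEF treated for 3 days without reprogramming had a Hox sum of 551.9 to 636.5 TPM, near that of untreated MEF. Hoxb9 stood at 87.4, 70.7 and 89.2 CPM with DMSO, Vc and DKG, beside 83.8 and 81.7 CPM in the untreated MEF libraries. Hoxa10, a posterior HoxA gene, stood at 24.8, 32.7 and 27.1 CPM beside 13.1 and 13 CPM, and Hoxc10 at 29.8, 32.4 and 29.4 CPM beside 18.5 and 16.9 CPM, so for both genes all 3 libraries lay above both untreated ones. Other genes lay below both untreated libraries in all 3. Hoxb5 stood at 6.39, 4.86 and 4.76 CPM beside 11.4 and 10.2 CPM, and Hoxb6 at 15.5, 17.8 and 16.5 CPM beside 28.1 and 21.1 CPM. Hoxa3 and Hoxa5 were lower in this way too. Posterior genes gave 29.5% to 34% of Hox transcripts in these 3 libraries. HoxD summed to 41.5 to 52.1 TPM. With 1 library per medium, none of these differences was tested.

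At day 3 of reprogramming, in the test without the number, the Hox genes called lower were all in HoxA, HoxB and HoxC. The 2 called higher were both in HoxD. Over all 6 groups of day 3 against MEF, 9 of the 33 Hox genes that passed the filter on low counts fell and 2 rose (adjusted p under 0.05 by edgeR's quasi-likelihood test with Benjamini-Hochberg adjustment). Among all 14914 genes tested, 21.7% fell and 20.1% rose, so Hox genes fell at near that share and rose less often. The Hox median was -0.69 on the log2 scale, against 0.05 over all genes tested. By cluster, 3 of 10 tested HoxA genes, 3 of 9 HoxB genes and 3 of 8 HoxC genes fell, and both genes that rose were among the 6 tested in HoxD. Comparing the 2 libraries of Flag with DMSO alone with MEF, 3 genes fell and 1 rose, where 13.9% and 14.8% of all genes did. Both Hox counts lay under these shares. The fallen genes were Hoxa5 (log2 fold change -1.04, SE 0.38, adjusted p = 0.0489), Hoxb8 (-1.78, SE 0.39, adjusted p = 0.00289) and Hoxb9 (-2.08, SE 0.39, adjusted p = 0.00084), and Hoxd13 rose (2.05, SE 0.56, adjusted p = 0.0117).

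Of the genes that fell, Hoxb9 and Hoxb8, neighbours in HoxB, fell furthest among well-counted members. Hoxb9 stood at 83.8 and 81.7 CPM in MEF and at 11.9 to 33.3 CPM (median 21.2) in the 12 libraries of day 3, a log2 fold change of -1.93 (SE 0.25, adjusted p = 1.01e-05). Hoxb8 went from 28.99 and 24.99 CPM to 5.74 to 11.9 CPM (median 7.91), a log2 fold change of -1.67 (SE 0.26, adjusted p = 6.54e-05). Neither gene's day 3 libraries overlapped with MEF, and in MEF treated without reprogramming Hoxb8 stood at 20.2, 21.9 and 22.4 CPM. All day 3 libraries lay below both MEF libraries for 19 of the 33 tested Hox genes and 25.5% of all genes tested. Lack of overlap was also part of the rule for naming genes in full. Hoxc8 fell by 1.44 (SE 0.43, adjusted p = 0.0111), Hoxb2, which acts in the hindbrain of the embryo, by 1.44 (SE 0.46, adjusted p = 0.018) and Hoxc5 by 1.27 (SE 0.40, adjusted p = 0.0154) on the log2 scale. Hoxa5, Hoxa3 and Hoxa7 fell by 1.21, 0.88 and 0.64 on the log2 scale. Hoxa3 stood at 25.1 and 25.0 CPM in MEF and 8.94 to 17.2 CPM at day 3. Without reprogramming, MEF treated 3 days held it at 15.5, 17.3 and 10.9 CPM, about as low. Hoxa5 stood at 32 and 35.35 CPM in MEF and 11 to 17.5 CPM at day 3. Its level in MEF treated without reprogramming was 20.3, 23.2 and 23.2 CPM, in between. Hoxc13, a gene of hair and nail, fell from 14 and 8 counts in MEF to 19 counts over all 12 libraries of day 3, a ratio of 0.139 (95% counting interval 0.0712 to 0.269), and its fitted log2 fold change was -2.91 (SE 0.67, adjusted p = 0.00193).

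Both genes that rose were in HoxD. Hoxd4, the central HoxD gene next to Hoxd3, stood at 5.37 and 4.67 CPM in MEF and at 8.79 to 25.3 CPM (median 15.7) at day 3, a log2 fold change of 1.69 (SE 0.64, adjusted p = 0.0405). Hoxd13, the last gene of the cluster and a gene of the digits, rose from 0.859 and 0.813 CPM, or 4 counts in each MEF library, to 1.67 to 4.27 CPM (median 2.75), a log2 fold change of 1.75 (SE 0.48, adjusted p = 0.00715). For both genes every day 3 library lay above both MEF libraries, as for 4 of the 33 tested Hox genes and 24.6% of all genes tested. In MEF treated without reprogramming, Hoxd4 stood at 8.52, 5.40 and 10.6 CPM and Hoxd13 at 1.36, 1.08 and 2.80 CPM, so the highest of these reached into the range of the reprogramming libraries. Hoxd9 stood at 3.44 and 3.86 CPM in MEF and 4.79 to 11.7 CPM at day 3, with a log2 fold change of 1.20 (SE 0.55, adjusted p = 0.0865). The spans of Hoxd3 and Hoxd4 overlap on the same strand, so the division of reads between them is an estimate.

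The libraries numbered 0824 and 0826 differed within each day, and a fit that takes the number into account called more genes. In that fit MEF has its own number term, so the MEF libraries add nothing to the spread. Against MEF or between days, its p-values leave out how far the numbers differ within a day. They may therefore be too small. With a replicate block within each day (the number as a term, with 30 Hox genes and 14368 genes tested), 19 Hox genes fell and 5 rose at day 3, where 31.7% of all genes fell and 33.1% rose. In that fit all 8 tested HoxB genes and all 6 tested HoxC genes fell, and Hoxd3, Hoxd4, Hoxd9, Hoxd13 and Hoxa9 rose. For Flag with DMSO alone the blocked fit gave 13 lower and 6 higher genes, beside 28.4% and 29.9% of all genes. Without MEF library 0824 or 0826 the unblocked calls at day 3 dropped to 3 and 4, and neither Hoxd4 nor Hoxd13 was called any more, with either library left out. Fibroblast markers moved with these changes, 11 of 12 being lower and none higher at day 3, as did macrophage markers, 8 of 8 lower. Their part in the Hox changes was not tested.

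**Figure D2:**
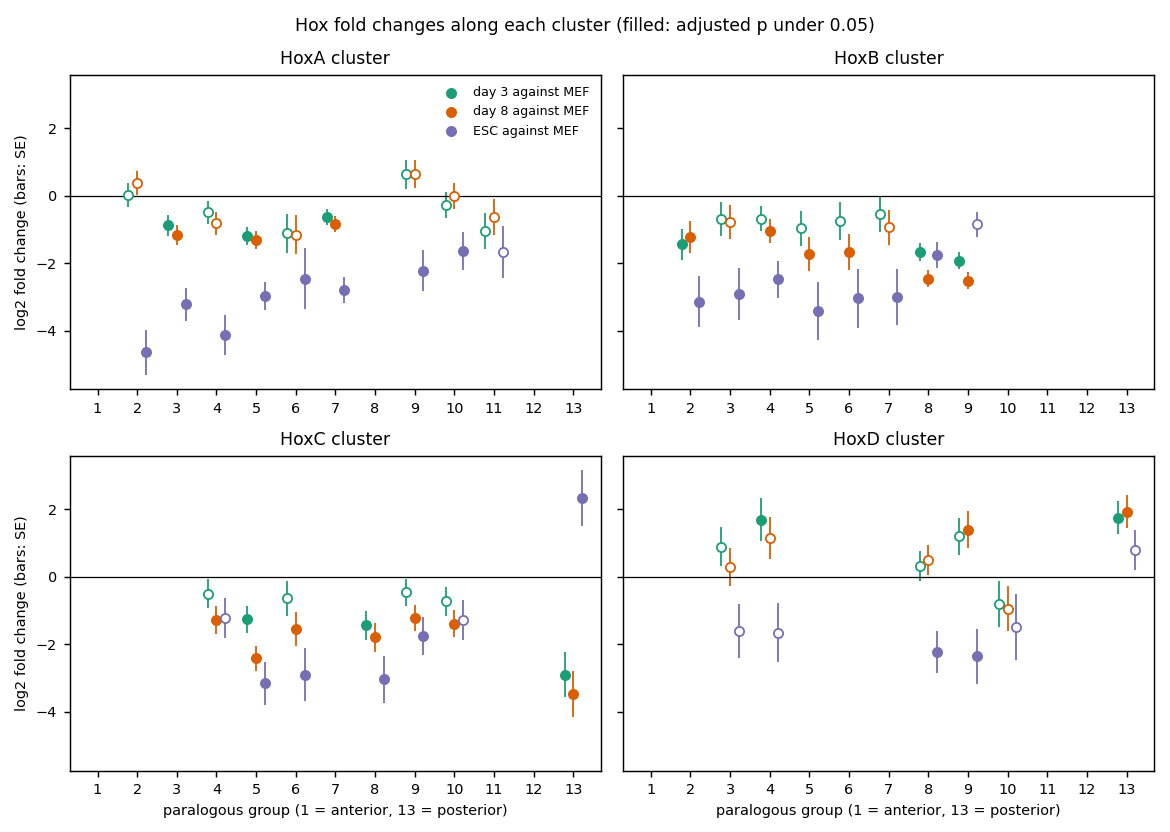
Log2 fold change against MEF (vertical axis; bars, SE) of tested Hox genes by paralogous group (horizontal axis) in each cluster, for day 3, day 8 and ESC, with filled points for an adjusted p under 0.05 by edgeR's quasi-likelihood test. Genes with a MEF mean under 0.5 CPM (Hoxb13 and Hoxc12) are left out; HoxB and HoxC points of day 3 and day 8 lie below 0, while those of Hoxd4, Hoxd9 and Hoxd13 lie above 0.

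The stretches before the starts of 2 genes that fell and 2 that rose are shown as examples with few and many CG, the dinucleotide at which cytosine is methylated and TET enzymes act. Of the 39 Hox genes, 22 had an entry in the RefSeq promoter table (GRCm38.p6), with 24 windows. The 250 bases before the start are given 5′ to 3′ on the gene's strand, with each CG in capitals. No annotated exon overlaps any of the 4.
Hoxb8 (fell; chr11:96281655-96281904, plus strand): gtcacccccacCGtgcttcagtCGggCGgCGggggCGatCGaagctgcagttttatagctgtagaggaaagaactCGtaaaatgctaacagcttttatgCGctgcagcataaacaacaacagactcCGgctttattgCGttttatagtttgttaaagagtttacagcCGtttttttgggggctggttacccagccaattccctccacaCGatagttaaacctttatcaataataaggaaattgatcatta
Hoxa5 (fell; chr6:52204588-52204837, minus strand): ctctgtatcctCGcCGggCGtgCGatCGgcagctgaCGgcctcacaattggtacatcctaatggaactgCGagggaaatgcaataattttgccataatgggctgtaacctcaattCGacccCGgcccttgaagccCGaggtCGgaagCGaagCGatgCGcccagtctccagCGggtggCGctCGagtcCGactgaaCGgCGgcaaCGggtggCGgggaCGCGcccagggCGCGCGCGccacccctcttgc
Hoxd4 (rose; chr2:74721728-74721977, plus strand): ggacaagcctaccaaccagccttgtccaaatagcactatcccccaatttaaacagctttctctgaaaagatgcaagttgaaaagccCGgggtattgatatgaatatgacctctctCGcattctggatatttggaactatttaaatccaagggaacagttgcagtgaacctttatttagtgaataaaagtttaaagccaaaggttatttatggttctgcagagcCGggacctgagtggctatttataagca
Hoxd13 (rose; chr2:74667975-74668224, plus strand): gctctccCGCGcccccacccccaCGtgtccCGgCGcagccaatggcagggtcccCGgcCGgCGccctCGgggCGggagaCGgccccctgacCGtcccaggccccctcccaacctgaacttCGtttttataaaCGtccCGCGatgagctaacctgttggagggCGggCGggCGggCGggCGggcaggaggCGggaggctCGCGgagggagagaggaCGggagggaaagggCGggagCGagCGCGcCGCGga

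Since the 4 windows were picked to span few and many CG in each direction, their CG content is a description and bears on no direction. Hoxb8 held 12 CG, Hoxa5 28, Hoxd4 3 and Hoxd13 31. Of 32851 windows of the same length in the table, 33.5% held at least as many as Hoxb8, 7.61% as many as Hoxa5, 71% as many as Hoxd4 and 5.19% as many as Hoxd13. The median was 12.5 CG over the 24 Hox windows, which ranged from 2 to 35, and 6 over all windows. The letters TGATNNAT, a composite bound by PBX and HOX proteins together, were searched on both strands, with no other motif searched at overlapping positions, and stood in 4 of the 24 Hox windows, that of Hoxb8 among them, and in 7.68% of all windows. Such a match is a description of letters, and no measurement of binding or methylation was used here.

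By day 8 more genes of HoxB and HoxC were called below MEF than at day 3 in the test without the number. Against MEF, 16 of 33 tested Hox genes fell and 2 rose, where 22.5% of all genes fell and 23.1% rose. The Hox median was -1.06 on the log2 scale, against 0.07 over all genes tested. The genes that fell were 7 of 8 tested in HoxC, 6 of 9 in HoxB and 3 of 10 in HoxA, and both that rose, Hoxd9 and Hoxd13, were posterior HoxD genes. Among positions, 10 of 15 central genes fell and none rose. With the replicate block within each day 19 fell and 5 rose, where 32.9% and 35.1% of all genes did. These totals were the same as at day 3 in that fit, so the increase in calls depends on the fit.

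Hoxb9 stood at 10.2 to 24.2 CPM (median 13.6) at day 8, a log2 fold change of -2.52 against MEF (SE 0.24, adjusted p = 5.83e-07). Hoxb8 stood at 2.21 to 7.10 CPM (median 5.13), a log2 fold change of -2.46 (SE 0.25, adjusted p = 1.05e-06). Hoxc5 went from 32 and 30.3 CPM in MEF to 2.84 to 8.72 CPM (median 6.39), a log2 fold change of -2.42 (SE 0.38, adjusted p = 6.32e-05). The 12 day 8 libraries of each of these genes lay below both MEF libraries, which was part of the rule for naming them. Of the 33 tested Hox genes, 18 lay wholly below MEF at day 8 and 2 wholly above. Over all genes tested the shares were 21.6% and 23%. Hoxc8 fell by 1.80 (SE 0.42, adjusted p = 0.00196), Hoxb5 by 1.74 (SE 0.51, adjusted p = 0.00916) and Hoxb6 by 1.67 (SE 0.53, adjusted p = 0.0154) on the log2 scale. Hoxc13 had 13 counts over all 12 libraries, a ratio of 0.0896 to MEF (95% counting interval 0.0414 to 0.186). Hoxd13 stood at 1.12 to 5.30 CPM (median 3.45), above both MEF libraries throughout, with a log2 fold change of 1.93 (SE 0.48, adjusted p = 0.00347). Hoxd9 stood at 4.18 to 17.1 CPM (median 7.89), with a log2 fold change of 1.40 (SE 0.55, adjusted p = 0.0459). Without reprogramming, MEF treated 3 days held Hoxd9 at 2.52, 4.32 and 6.99 CPM, which reached into the day 8 range. Hoxd4 stood at 5.16 to 19.5 CPM and overlapped with MEF, with a log2 fold change of 1.14 (SE 0.62, adjusted p = 0.143; 0.00131 with the block within each day). Without MEF library 0824 the day 8 calls dropped to 7 and without 0826 also to 7.

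In the other clusters, all reprogramming libraries lay below both MEF libraries for Hoxc6 and Hoxa7, while those of Hoxd8 overlapped with MEF at both days. Of all genes tested, 25.5% lay wholly below MEF at day 3 and 21.6% at day 8. Hoxc6, at 80.8 and 56.9 CPM in MEF and 60.6, 79.6 and 59.0 CPM in MEF treated 3 days, stood at 32.1 to 53.3 CPM (median 44.4) at day 3 and 5.16 to 40.7 CPM (median 21.6) at day 8. Hoxa7, at 17.6 and 18.3 CPM in MEF and 11.4, 19.97 and 10.9 CPM in MEF treated 3 days, stood at 8.80 to 14.3 CPM (median 11.2) at day 3 and 7.11 to 12.45 CPM (median 9.999) at day 8. Hoxd8, at 15.03 and 12.2 CPM in MEF and 19.8, 20.5 and 24.1 CPM in MEF treated 3 days, stood at 11.4 to 23.01 CPM (median 17.2) at day 3 and 12.8 to 29.8 CPM (median 17.9) at day 8.

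**Figure D3:**
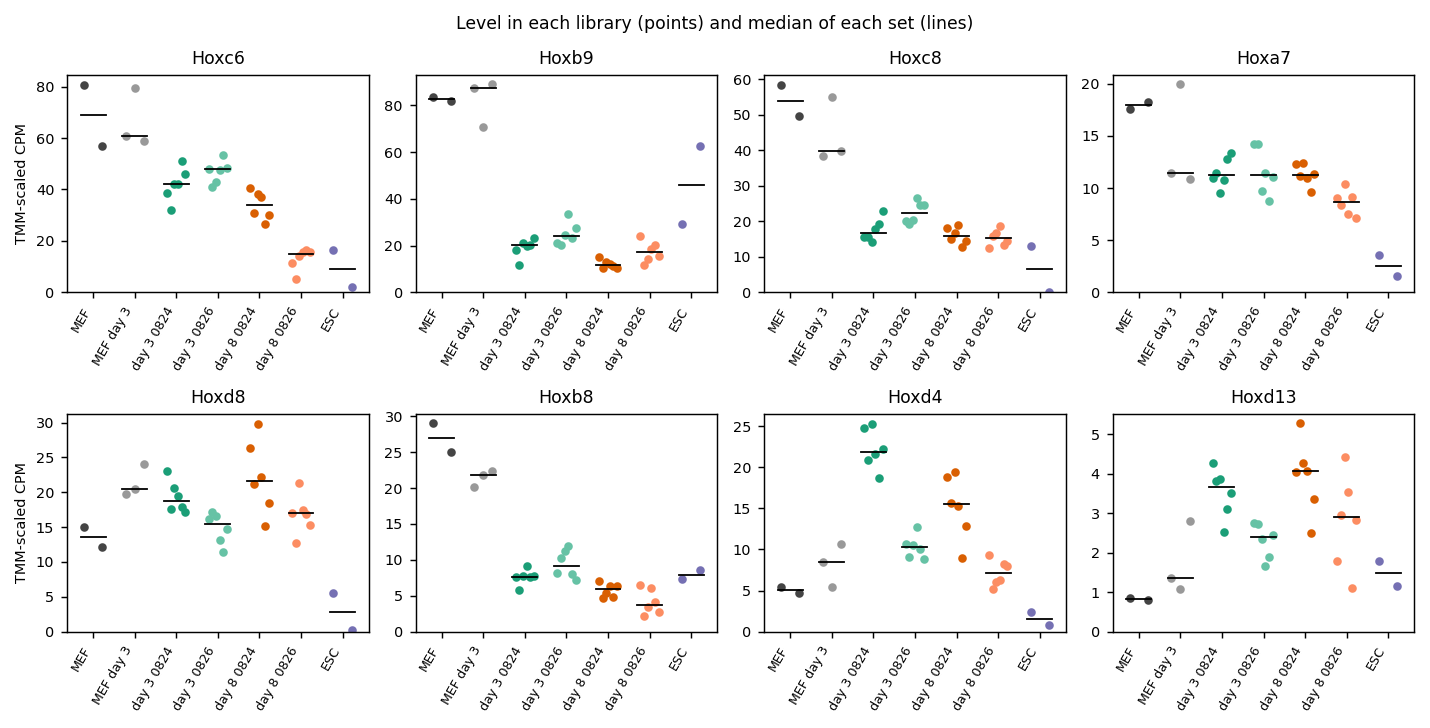
Level in TMM-scaled CPM (vertical axis, linear from 0) of 8 Hox genes in each of the 31 libraries (points), by set (horizontal axis: MEF, MEF treated 3 days, day 3 and day 8 by number, ESC), with a line at each set's median. Hoxb9 and Hoxb8 drop in every reprogramming library, Hoxd4 is highest in the day 3 libraries numbered 0824 (18.7 to 25.3 CPM), and Hoxc6 is lowest among reprogramming libraries in those of day 8 numbered 0826 (5.16 to 16.6 CPM).

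As shares of all Hox transcripts in TPM, HoxD went from 4.24% and 5.03% in MEF to 9.22% to 18.7% at day 3 and 13.5% to 18% at day 8. In MEF treated 3 days without reprogramming it was 6.52% to 9.03%. The HoxD sum was 41.5 to 52.1 TPM in those MEF, 37.2 to 79.3 TPM at day 3 and 36.3 to 77.9 TPM at day 8. These sums overlapped, and a share also rises when other clusters fall. HoxB gave 35.4% and 32.4% in MEF. In the reprogramming libraries its share lay between 17.9% and 26%, below both MEF libraries. The summed level of all Hox genes was 627 and 573 TPM in MEF, 371 to 462 TPM at day 3 and 227 to 454 TPM at day 8. The mean paralogous group weighted by TPM was 6.38 and 6.49 in MEF, 6.24 to 6.51 at day 3 and 6.30 to 6.61 at day 8.

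Between day 3 and day 8, 7 Hox genes fell and none rose in the test without the replicate number, where 10.7% of all genes fell and 14.4% rose. They were Hoxb6, Hoxb8, Hoxb9, Hoxc4, Hoxc5, Hoxc6 and Hoxc9. Hoxc5 had the largest change among them, a log2 fold change of -1.15 (SE 0.25, adjusted p = 0.00249), and was the member whose day 8 libraries all lay below its day 3 libraries. Of all genes tested, 0.469% lay wholly below in this way. Hoxb6 had a log2 fold change of -0.92 (SE 0.33, adjusted p = 0.0475), Hoxc6 of -0.91 (SE 0.30, adjusted p = 0.0344) and Hoxb8 of -0.79 (SE 0.17, adjusted p = 0.00214). Hoxc4 had a log2 fold change of -0.77 (SE 0.25, adjusted p = 0.0287), Hoxc9 of -0.76 (SE 0.22, adjusted p = 0.0183) and Hoxb9 of -0.59 (SE 0.16, adjusted p = 0.0109), and their day 3 and day 8 libraries overlapped. With the replicate block within each day, whose p-values between days may be too small, 17 fell and 2 rose, where 27.2% and 27.1% of all genes did. For Flag with DMSO alone, edgeR called none (1.09% of all genes were called, and 1 Hox gene had an unadjusted p under 0.05), DESeq2 and limma also called none, and the block within each day called 6 lower, Hoxb6, Hoxc4, Hoxc5, Hoxc6, Hoxc9 and Hoxc10, where 9.95% of all genes fell.

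This later fall differed between the 2 numbers. Within the 12 libraries numbered 0824, 6 of 33 Hox genes fell from day 3 to day 8 (10.6% of all genes fell), and within the 12 numbered 0826, 16 fell (24.9% of all genes). None rose in either. In 0826 the genes that fell included 6 of 8 tested in HoxC and 6 of 9 in HoxB. A test of the difference itself, the number by day interaction, called 12 of 30 Hox genes, all with the larger fall in 0826, where 21.9% of all genes went that way. All 6 tested HoxC genes and 5 of 8 HoxB genes were among them, 1 HoxA gene (Hoxa6) and no HoxD gene, and 10 of the 12 were central genes. These comparisons of the numbers were chosen after the data were seen. Their p-values rest on the spread among differently treated libraries that share a number and a day, whose deviations are correlated. They do not measure how far further sets of libraries would differ.

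Hoxc6 showed the difference most plainly. At day 3 it stood at 32.1 to 51.1 CPM (median 42.2) in the 6 libraries numbered 0824 and 41.1 to 53.3 CPM (median 47.8) in the 6 numbered 0826. At day 8 it stood at 26.7 to 40.7 CPM (median 34.0) in 0824 and 5.16 to 16.6 CPM (median 14.9) in 0826, with no overlap. The interaction was -1.51 on the log2 scale (SE 0.20, adjusted p = 7.73e-06). At day 8, 6 of the 33 tested Hox genes and 10.3% of all genes tested lay wholly lower in 0826. Hoxc4 followed, at 10.2 to 17.1 CPM in 0824 and 4.03 to 9.86 CPM in 0826 at day 8, with an interaction of -1.51 (SE 0.27, adjusted p = 0.000209), and Hoxb7, at 4.98 to 12.95 CPM and 2.42 to 5.29 CPM with a small overlap, with one of -1.35 (SE 0.26, adjusted p = 0.000426). Hoxd4 differed between the numbers already at day 3, at 18.7 to 25.3 CPM in 0824 and 8.79 to 12.7 CPM in 0826, and its change from day 3 to day 8 was -0.56 and -0.51 on the log2 scale in the 2 numbers.

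**Figure D4:**
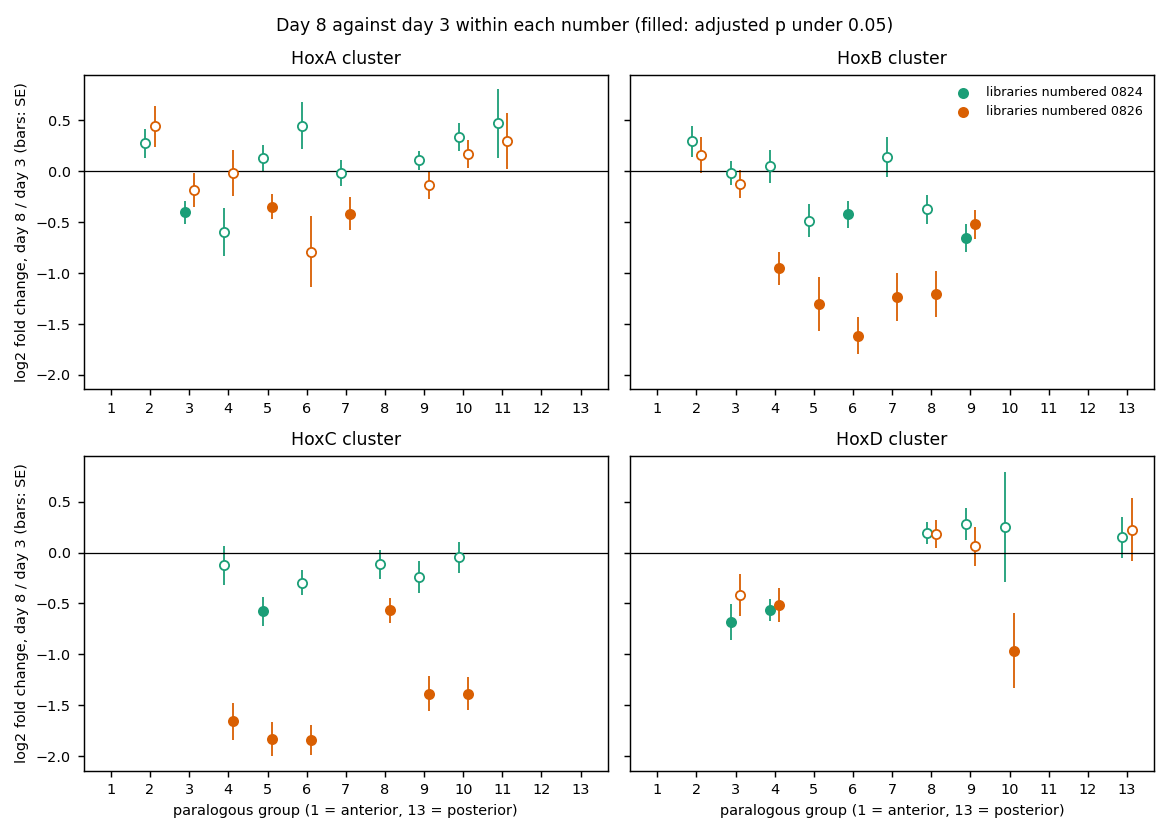
Log2 fold change from day 3 to day 8 (vertical axis; bars, SE) of Hox genes with at least 1 CPM on average, by paralogous group (horizontal axis) and cluster, within the libraries numbered 0824 and within those numbered 0826, with filled points for an adjusted p under 0.05. Hoxc6 lies at -1.85 in 0826 and -0.30 in 0824, and Hoxb6 at -1.61 and -0.42, while Hoxd4 lies at -0.51 and -0.56.

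At day 3, 4 Hox genes were higher in 0826 than in 0824 and 6 were lower, where 17.3% of all genes were higher and 16.7% lower. The lower ones were Hoxb3 and 5 of the 6 tested HoxD genes, led by Hoxd4 at -1.11 (SE 0.15, adjusted p = 1.68e-05) and Hoxd3 at -1.01 (SE 0.15, adjusted p = 6.3e-05). At day 8, 2 were higher, Hoxa3 and Hoxb9, and 21 lower, where 26.9% and 29.8% of all genes were. Other genes differed with the number at day 8: all 12 fibroblast markers were higher in 0826 (summed, 7380 to 10244 CPM against 3691 to 4720 CPM), and all 7 epithelial and 8 of 10 ESC markers were lower. All 8 macrophage markers were called lower too, but this rested on 1 library, Tet1CD with Vc numbered 0824, at a summed 890.1 CPM. The other 5 day 8 libraries numbered 0824 stood at 9.34 to 21.54 CPM against 6.49 to 15.45 CPM in 0826, and without the Tet1CD with Vc libraries 1 of 8 was called lower. Their part in the Hox difference was not tested, and what the numbers stand for is not given in the labels.

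No effect of Vc, DKG or Tet1CD on Hox genes was detectable in the test without the number, while 3 Hox genes were called with it. The numbers were taken to pair libraries within a day, so the test without them leaves their difference in the spread. It may therefore miss small effects. No Hox gene was called for Vc against DMSO at day 3 (0.121% of all genes were called) or day 8 (0.201%), for DKG against DMSO at day 3 (0%) or day 8 (0%), for Tet1CD against Flag at day 3 (0.697%) or day 8 (1.76%), or for the Tet1CD by Vc interaction at day 3 (0.101%) or day 8 (0.0201%). DESeq2 and limma also called none in these 8 comparisons. By edgeR at most 1 Hox gene in each had an unadjusted p under 0.05. With the replicate block within each day, Hoxd3 was lower with Vc at day 8 (log2 fold change -0.71, SE 0.21, adjusted p = 0.041), where 3.24% of all genes were lower, and Hoxc8 (0.38, SE 0.09, adjusted p = 0.0103) and Hoxb9 (0.35, SE 0.11, adjusted p = 0.0309) were higher with Tet1CD at day 3, where 9.7% of all genes were. The libraries compared, taken without pairing by number, overlapped for all 3 of these genes.

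ESC held most Hox genes below their MEF level. Against MEF, 21 of 33 tested Hox genes were lower in ESC and 3 were higher, where 25.7% of all genes were lower and 26.8% higher. The Hox median was -2.24 on the log2 scale, against 0.00 over all genes tested. Of the central genes, 13 of 15 were lower. The 3 that were higher, Hoxb13, Hoxc12 and Hoxc13, lie at the posterior ends of HoxB and HoxC. These 3 passed the filter on low counts only through the ESC libraries. Their calls and their place in the clusters are thus a description and no independent result. Without ESC library 0822, which held more fibroblast transcripts, 25 were lower and 3 higher, where 27% and 29.1% of all genes were. Without 0819, 16 were lower and 2 higher, where 17.3% and 20.4% were.

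The 2 ESC libraries differed in their Hox levels. Among 25 Hox genes with a MEF mean of at least 5 CPM, library 0822 held a median of 25.1% of the MEF level. Single genes differed widely, with Hoxa4 at 3.58% and Hoxc10 at 68.6%. Of the summed marker sets below MEF in 0822, fibroblast markers stood at 29.6%, muscle at 23.5%, neural at 49.2% and macrophage at 6.85%. Library 0819 held a median of 3.88%, beside 9.07% for the fibroblast markers, and 17 of the 25 were under 10%. In 0819, 12 of the 39 genes had 0 counts, against 1 in 0822. Whether the fibroblast-type transcripts and the Hox transcripts of 0822 come from the same cells was not tested, and the labels do not mention feeder cells.

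**Figure D5:**
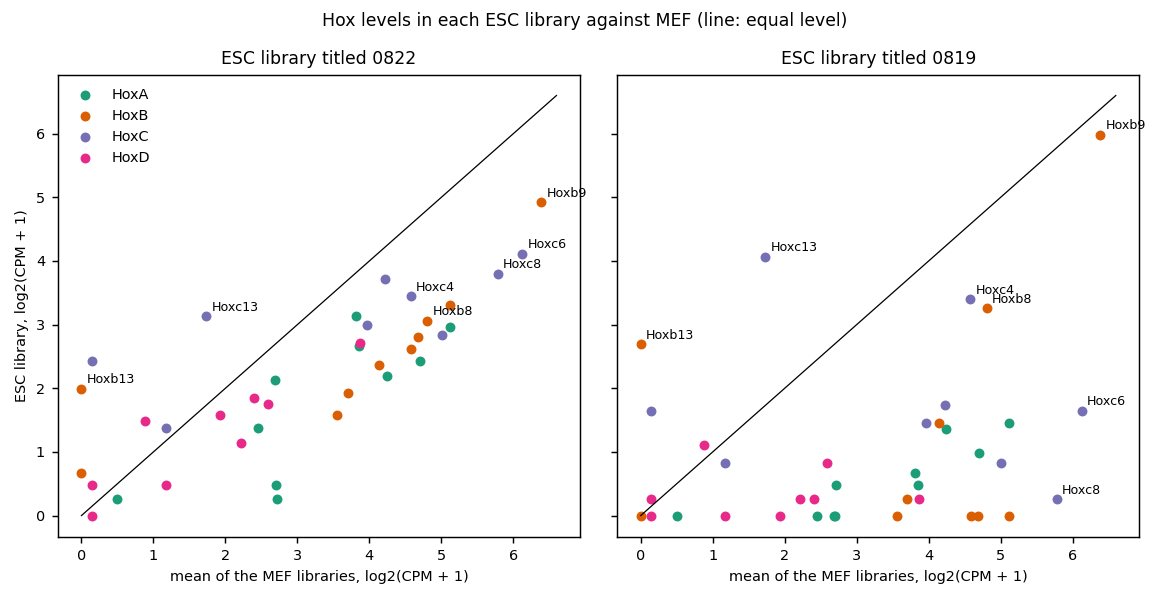
Level of Hox genes in ESC library 0822 (left) and 0819 (right), as log2(CPM + 1), against the mean of the 2 MEF libraries on the same scale, by cluster, with a line of equal level. In 0822 most genes lie in a band below the line; in 0819 most drop to near 0, while Hoxb9, Hoxb8 and Hoxc4 stay near their place in 0822 or higher and Hoxc13 and Hoxb13 lie above the line.

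By name, the largest falls in ESC were in anterior and central genes. Hoxa2 stood at 0.397 and 0 CPM in ESC libraries 0822 and 0819 (2 and 0 counts) against 4.94 and 6.09 CPM in MEF, a ratio of 0.0355 (95% counting interval 0.00419 to 0.135; adjusted p = 3.35e-05). Hoxa4 stood at 0.199 and 0.389 CPM against 6.44 and 4.67 CPM (log2 fold change -4.13, SE 0.60, adjusted p = 3.62e-05). Hoxb5 stood at 1.99 and 0 CPM (log2 fold change -3.41, SE 0.86, adjusted p = 0.00336), Hoxa3 at 4.37 and 0.972 CPM (-3.22, SE 0.49, adjusted p = 5.57e-05), Hoxc5 at 6.16 and 0.778 CPM (-3.16, SE 0.64, adjusted p = 0.000631) and Hoxb2 at 5.17 and 0 CPM (-3.15, SE 0.76, adjusted p = 0.00242). With the spread taken from the ESC and MEF libraries alone, 4 Hox genes in all were called, and none of these but Hoxa4 was.

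Of other HoxA genes, Hoxa5 stood at 6.76 and 1.75 CPM in the ESC libraries 0822 and 0819, Hoxa6 at 1.59 and 0 CPM, Hoxa7 at 3.58 and 1.56 CPM, Hoxa9 at 5.37 and 0.389 CPM, Hoxa10 at 7.75 and 0.583 CPM and Hoxa11 at 3.38 and 0 CPM. Of the other HoxB genes, Hoxb1 stood at 0.596 and 0 CPM, Hoxb3 at 8.94 and 0 CPM, Hoxb4 at 4.17 and 1.75 CPM, Hoxb6 at 5.96 and 0 CPM and Hoxb7 at 2.78 and 0.195 CPM. Each of these was higher in 0822 than in 0819. Of the other HoxC genes, Hoxc6 stood at 16.3 and 2.14 CPM, Hoxc8 at 12.9 and 0.195 CPM, Hoxc9 at 6.95 and 1.75 CPM, Hoxc10 at 12.1 and 2.33 CPM and Hoxc11 at 1.59 and 0.778 CPM. In HoxD, Hoxd1 stood at 0.397 and 0.195 CPM, Hoxd3 at 2.58 and 0.195 CPM, Hoxd4 at 2.38 and 0.778 CPM, Hoxd8 at 5.56 and 0.195 CPM, Hoxd9 at 1.19 and 0.195 CPM, Hoxd10 at 1.99 and 0 CPM, Hoxd11 at 0.397 and 0 CPM and Hoxd13 at 1.79 and 1.17 CPM. Hoxa13 and Hoxd12 had at most 1 count in either library.

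A small set of genes did not show the marked drop from 0822 to 0819, or stood above MEF. Hoxb9 stood at 29.4 and 62.4 CPM in the ESC libraries 0822 and 0819 and was thus higher in the library with fewer fibroblast transcripts. Per length it was the most abundant Hox gene in 0819, at 50.7 TPM, and followed Hoxc6 in 0822. Its log2 fold change against MEF was -0.85 (SE 0.37, adjusted p = 0.0625), and without library 0819 it was -1.49 (adjusted p = 0.0115). Hoxb8 stood at 7.35 and 8.56 CPM and Hoxc4 at 9.94 and 9.53 CPM, about the same in both libraries. Both genes were still below MEF, Hoxb8 at 27.2% and 31.7% of the MEF mean and Hoxc4 at 43.5% and 41.8%. Hoxc13 stood at 7.75 and 15.75 CPM against 3.01 and 1.62 CPM in MEF (log2 fold change 2.33, SE 0.83, adjusted p = 0.025), and without ESC library 0819 it was not called (1.74, adjusted p = 0.162). Hoxb13 had 15 and 28 counts in ESC and 0 in both MEF libraries, at least 13.5-fold higher when the floor of 3 counts is taken over the MEF group. Hoxc12 had 22 and 11 counts in ESC and 1 and 0 in MEF, a ratio of 31.1 (95% counting interval 5.2 to 1264). These last 2 were called by edgeR (adjusted p = 0.00532 for Hoxb13 and 0.00961 for Hoxc12) but not by DESeq2 (adjusted p = 0.473 and 0.295), and Hoxb13 and Hoxc12 stood at 0.581 CPM or less in MEF treated without reprogramming.

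Compared with the 12 libraries of day 8, ESC had 16 Hox genes lower and 4 higher, where 24.3% of all genes were lower and 27.6% higher. The 4 were Hoxb9, at 10.2 to 24.2 CPM at day 8, and the genes Hoxb13, Hoxc12 and Hoxc13. Of these, Hoxb13, Hoxc12 and Hoxc13 entered the test only through the ESC libraries, so their being higher there is no independent result. Hoxb9 had a log2 fold change of 1.67 (SE 0.26, adjusted p = 3.34e-05), so that both ESC libraries lay between the day 8 and the MEF libraries. Hoxb13 had 4 counts and Hoxc12 4 counts over all 12 day 8 libraries, ratios of ESC to day 8 of 66.8 (95% counting interval 24.3 to 256) and 51.2 (18.2 to 199), and Hoxc13 had 13, a ratio of 57.3 (32.3 to 111). Of the 6 tested HoxD genes, 5 were lower in ESC, with Hoxd9 at -3.76 (SE 0.72, adjusted p = 0.00028) and Hoxd4 at -2.80 (SE 0.74, adjusted p = 0.00423). Without ESC library 0819, 2 of the 6 were lower, Hoxd8 and Hoxd9, and Hoxd4 was not called (-2.21, adjusted p = 0.0825). Hoxa2 had a ratio of 0.0276 (0.00333 to 0.1), Hoxa4 a log2 fold change of -3.30 (SE 0.54, adjusted p = 6.83e-05) and Hoxa9 one of -2.86 (SE 0.54, adjusted p = 0.00024). Without ESC library 0822, 25 were lower and 4 higher (26.7% and 28.7% of all genes), and without 0819, 9 and 4 (16.2% and 18.9%).

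Genes that work with Hox proteins or act on the clusters were listed by their role. Over all genes tested, 21.7% were lower and 20.1% higher at day 3, 22.5% and 23.1% at day 8, and 25.7% and 26.8% in ESC, and the counts of each list are to be read against these shares. Of 9 TALE cofactors, the PBX, MEIS and PREP proteins that bind DNA with Hox proteins, 3 were lower at day 3 and 4 at day 8, with none higher. Meis1 stood at 43.8 to 47.1 CPM in MEF and 12.3 to 21.4 CPM at day 8 (log2 fold change -1.41, SE 0.30, adjusted p = 0.00111). In ESC, 5 were lower and 1, Pbx4, higher. Of the 8 tested among 12 Cdx and retinoid genes, which switch Hox genes on in the embryo, 4 were lower and 1 higher at day 3, and 4 lower and 2 higher at day 8. The retinoic acid binding gene Crabp2 stood at 28.6 to 30.7 CPM in MEF and 95.8 to 229 CPM at day 8 (log2 fold change 2.29, SE 0.32, adjusted p = 2.11e-05), while Rarb stood at 3.22 to 3.86 CPM and 0.491 to 1.78 CPM (-1.92, SE 0.45, adjusted p = 0.00196). Cdx1, an activator of Hox genes, had 0 CPM in both MEF libraries and 35.6 to 53.5 CPM in ESC.

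Of 20 Polycomb genes, which keep Hox clusters silent, 6 were higher and 1 lower at day 3, 8 higher and 3 lower at day 8, and 12 higher and 4 lower in ESC, beside 20.1%, 23.1% and 26.8% of all genes that were higher. Cbx7 stood at 3.45 to 3.87 CPM in MEF, 6.49 to 37.7 CPM at day 8 (log2 fold change 2.25, SE 0.61, adjusted p = 0.00575) and 134 to 171 CPM in ESC, and the methyltransferase gene Ezh2 at 35.0 to 40.0 CPM in MEF and 62.1 to 91.5 CPM at day 8 (1.07, SE 0.10, adjusted p = 6.41e-07). Of 13 genes on the trithorax side, which keep Hox genes active, 5 were higher and none lower at each of day 3 and day 8, and 6 were higher and 1 lower in ESC. Mllt3 stood at 19.8 to 24.6 CPM in MEF and 89.9 to 141 CPM at day 8 (2.38, SE 0.21, adjusted p = 2.52e-07). Among 27 tested of 32 other transcription factors of position, 8 were lower and 3 higher at day 3, 13 lower and 3 higher at day 8, and 20 lower and 1 higher in ESC, beside 21.7%, 22.5% and 25.7% of all genes that were lower. Meox2, a mesoderm homeobox gene, stood at 0.215 to 1.83 CPM in MEF and 12.1 to 42.0 CPM at day 8 (4.67, SE 0.74, adjusted p = 7.32e-05), and Lhx9 at 23.0 to 24.5 CPM and 0.737 to 2.14 CPM (-4.03, SE 0.42, adjusted p = 1.25e-06).

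Noncoding genes and neighbours of the clusters were listed too. Of 10 noncoding genes of the clusters found in the files, 6 were tested, none was called at day 3 or day 8 by edgeR (0 and 1 had an unadjusted p under 0.05) and 4 were lower in ESC, among them Hoxaas3, at 8.81 to 8.94 CPM in MEF and 0.778 to 2.19 CPM in ESC (log2 fold change -2.57, SE 0.42, adjusted p = 9.74e-05). Since no counting strand is stated, reads of such antisense genes and of the Hox genes they overlap cannot be told apart. Of 12 tested genes that flank the clusters, 3 were higher and 2 lower at day 3, 4 higher and 1 lower at day 8, and 6 higher and 2 lower in ESC. The shares over all genes were 20.1% higher and 21.7% lower at day 3, 23.1% and 22.5% at day 8, and 26.8% and 25.7% in ESC, so that the day 3 counts were near those of all genes. Calcoco2, beyond the posterior end of HoxB, had 0 CPM in both MEF libraries, 0.491 to 3.02 CPM at day 8 and 143 to 206 CPM in ESC, and Ttll6, in the same stretch, 0 CPM in MEF and 4.57 to 47.3 CPM in ESC.

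The filter on low counts left out 6 members: Hoxa13, Hoxb1, Hoxc11, Hoxd1, Hoxd11 and Hoxd12. Hoxb1 had at most 3 counts in a library and Hoxd1 and Hoxd12 at most 2, so that a change in them was not detectable at this depth. Hoxc11 reached 18 counts and Hoxd11 13. Hoxb13, Hoxc12 and Hoxc13 did not pass it in fits without the ESC libraries. The spans of 15 Hox genes overlap another gene on the same strand, Hoxa3 with Hoxa4, Hoxa5 and Hoxa6, and Hoxc5 with Hoxc6, Hoxc8, Hoxc9 and Hoxc10, and 14 overlap one on the other strand, so the counts of these are estimates of the authors' model.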

How the data were processed

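The members and gene lists were chosen with earlier results of these data known. RNA was prepared with Trizol and the TruSeq RNA kit, per the labels' protocols. The submitters' processing notes name Bowtie, RSEM and mm10, with no versions. Each deposited file holds expected counts, TPM and FPKM per gene, per the file headers; the authors' expected counts were rounded to whole numbers (249 of 1209 Hox values were not whole), the deposited TPM were used as levels per length, and the deposited FPKM were not used. Names came from GENCODE M21, which matched 28756 of 29267 identifiers; the other 511 held at most 0.392% of a library's counts. Whether counting used strand is not given in the sources used here.

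Counts of 28 libraries in 14 groups of 2 were fitted together in edgeR 4.0.16 (R 4.3.3; default expression filter, TMM scaling, quasi-likelihood test, Benjamini-Hochberg adjustment over all genes tested, threshold 0.05); CPM are TMM-scaled. The fitting steps were tested on simulated data. DESeq2 1.42.0, limma 3.58.1 on log2(TPM + 1), RLE scaling, other filters, fits of only the libraries compared, replicate blocks and leaving out each library were the alternatives. Totals of 3953297 to 6818060 counts per library set the precision. Intervals of ratios of summed counts are exact at the 95% level and cover counting error only.

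Named in full were at most 8 called Hox genes per comparison, those with the largest change whose libraries did not overlap (all where 8 or fewer were called), the most abundant genes of each cluster in MEF, Hox genes with more than 1 count in ESC, and at most 4 called genes per list. Levels shown beside these for other Hox genes, the promoters and the comparisons of numbers were chosen after values were seen. To see whether the numbers 0824 and 0826 pair libraries, deviations from group means were correlated between same-numbered libraries: 0.356 to 0.504 within day 3 and 0.345 to 0.687 within day 8, but -0.00838 to 0.178 across days and -0.0101 to 0.305 between MEF and reprogramming. The numbers were thus taken to pair libraries within a day only. For comparisons against MEF or between days, the block within each day removes the difference between the numbers from the spread. Its p-values there may be too small. Values of some genes are not reported here and are left out of the figures.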

Additional observations from a re-analysis of the deposited data

Results flagged for a closer look

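For 12 Hox genes the change from day 3 to day 8 differed between the libraries numbered 0824 and 0826, by the interaction of number and day in edgeR's quasi-likelihood test (adjusted p under 0.05). All 12 differences have the larger fall in 0826. The p-values treat differently treated libraries that share a number and a day as replicates. They do not measure how far further sets of libraries would differ. On the log2 scale they were -1.51 for Hoxc6 and also -1.51 for Hoxc4, -1.31 for Hoxc10, -1.25 for Hoxc5, -1.14 for Hoxc9 and -0.44 for Hoxc8 in HoxC. In HoxB they were -1.35 for Hoxb7, -1.18 for Hoxb6, -0.99 for Hoxb4, -0.83 for Hoxb8 and -0.78 for Hoxb5. In HoxA the value was -1.24 for Hoxa6. Fibroblast, epithelial and ESC markers also differed between the numbers at day 8, and their part in this was not tested.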

How the results depend on the processing

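Of 1002 recomputed fold changes of named Hox genes none reversed, 902 kept their side of the threshold, 87 no longer passed it and 13 newly passed it. Fitting only the libraries compared gave 4 called Hox genes for ESC against MEF (24 with all libraries), 11 for Flag with DMSO at day 3 against MEF (4), 21 for all of day 3 against MEF (11) and 13 for ESC against day 8 (20). limma gave 7 for day 3 against MEF. The cause was not tested. With the paired analysis, as a replicate block within each day, the calls were 19 for Flag with DMSO at day 3, 24 for all of day 3, 19 for day 8 against day 3 (7 without it), 6 for the same in Flag with DMSO (0), 1 for Vc at day 8 (0) and 2 for Tet1CD at day 3 (0), and it changed no other count by over 1.5 times. For comparisons against MEF or between days, the p-values of this block may be too small. A replicate block common to all days gave 11, 17 and 13 for the first 3 of these paired counts. Within number 0826 alone, day 8 against day 3 gave 16. Leaving out 1 library at a time gave 18 to 28 calls for ESC against MEF, 2 to 3 for Flag with DMSO at day 3, 3 to 11 for day 3 and 7 to 18 for day 8 against MEF, 13 to 29 for ESC against day 8, and 4 to 10 for day 8 against day 3, the lowest without any of 8 libraries numbered 0826. It gave 7 to 11 for the numbers at day 3, 19 to 23 at day 8, 10 to 13 for their interaction, and 0 for each comparison of Vc, DKG and Tet1CD. DESeq2 did not call Hoxb13 and Hoxc12 in ESC. Groups of 2 libraries and few counts limit what could be seen for Hoxa13, Hoxb1, Hoxd1 and Hoxd12.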
